A study of Mus musculus with 8 samples.

Results

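Runs of neighbouring open regions that were lost together in the Alb-D2KO liver are described here. A region of reduced chromatin accessibility (RCA) is one that was called open in control liver and overlapped no region called in Alb-D2KO liver. The peak caller numbered the control regions along each chromosome, so RCAs with consecutive numbers had no kept control region between them. The members were chosen by this call alone, as maximal runs of 5 or more RCAs with consecutive numbers on 1 chromosome. They numbered 1105 of the 8031 RCAs and formed 172 runs. RCAs were 35.9% of the 22368 control regions, a total read from the numbering, and since that call selected the members nothing is read from their count.

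The series compared adult mice that carried a hepatocyte-specific inactivation of Dio2 (Alb-D2KO) with control mice, all C57BL/6 by the labels and C57BL/6J by the methods. In Alb-D2KO mice, Cre under control of the albumin promoter deletes the floxed part of Dio2, and the sample titles mark the controls as cre, so both groups carry Cre by that label. There were 4 libraries per genotype, each made from 50000 nuclei of frozen whole liver. The calls pooled the libraries of a genotype, so no value below has a replicate error, no test was made, and read depth is unknown. Whole liver holds several cell types, and fewer nuclei of a type cannot be told apart from less accessible chromatin per nucleus.

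ATAC-seq uses a transposase that inserts adapters where DNA is not wrapped in nucleosomes, so open promoters and enhancers are recovered. Genes of the hepatocyte often lie in clusters of related copies, and a highly expressed liver gene usually carries a promoter and several enhancers within its surroundings. The type 2 deiodinase, the product of Dio2, converts thyroxine to the active hormone T3, whose receptors bind DNA and recruit corepressors when unoccupied and coactivators when occupied.

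To show the DNA these runs are made of, 151 bases around the summit are given for regions of 8 runs, chosen as the region with the highest signal whose window held no untranslated exon. They are the plus strand of mm10 (GRCm38), read 5′ to 3′. Capitals mark exact matches, on either strand, of the motif letters searched, and a line without capitals holds none of them in its window, from which nothing is drawn about a factor.
Apoa1 exon, chr9:46229983-46230133: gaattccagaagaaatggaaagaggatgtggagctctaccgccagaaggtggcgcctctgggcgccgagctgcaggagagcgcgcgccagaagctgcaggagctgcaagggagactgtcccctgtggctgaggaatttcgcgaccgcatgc
Neat1 exon, chr19:5839465-5839615: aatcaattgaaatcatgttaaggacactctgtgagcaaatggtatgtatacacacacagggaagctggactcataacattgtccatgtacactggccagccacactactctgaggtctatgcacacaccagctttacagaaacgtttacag
Ahsg promoter region, chr16:22891713-22891863: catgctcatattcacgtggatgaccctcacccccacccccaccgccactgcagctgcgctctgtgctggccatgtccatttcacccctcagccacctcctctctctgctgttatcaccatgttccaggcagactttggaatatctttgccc
Serpina3k downstream side, chr12:104346431-104346581: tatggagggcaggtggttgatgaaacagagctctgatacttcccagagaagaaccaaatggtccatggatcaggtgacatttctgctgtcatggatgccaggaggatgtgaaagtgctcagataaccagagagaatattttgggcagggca
Cebpa flank, chr7:35122836-35122986: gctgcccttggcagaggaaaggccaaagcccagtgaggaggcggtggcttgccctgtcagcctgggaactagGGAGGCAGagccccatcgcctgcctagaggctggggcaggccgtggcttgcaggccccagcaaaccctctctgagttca
Dnmbp promoter region, chr19:43940226-43940376: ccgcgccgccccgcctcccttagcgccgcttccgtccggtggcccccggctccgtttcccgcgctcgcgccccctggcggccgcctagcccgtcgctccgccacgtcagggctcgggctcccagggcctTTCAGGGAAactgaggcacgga
Rere promoter region, chr4:150569190-150569340: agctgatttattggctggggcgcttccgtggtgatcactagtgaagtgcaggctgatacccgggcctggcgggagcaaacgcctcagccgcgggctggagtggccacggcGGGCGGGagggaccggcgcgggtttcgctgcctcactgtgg
Cmah intron, chr13:24338452-24338602: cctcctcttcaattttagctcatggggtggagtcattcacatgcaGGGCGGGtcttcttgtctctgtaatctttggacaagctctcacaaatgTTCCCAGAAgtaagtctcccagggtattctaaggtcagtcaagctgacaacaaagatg

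The letters searched were TTGCNNAA for C/EBP, CAAAGTCC for HNF4A, TGTTTAC for FOXA, GGGCGGG for SP1, GCGCATGCG for NRF1, GGNGGCAG for CTCF, TGANTCA for AP-1 and TTCNNNGAA for STAT5, with no mismatch. In the windows shown, capitals mark CTCF letters beside Cebpa, STAT5 letters at Dnmbp, SP1 letters at Rere, and both SP1 and STAT5 letters in Cmah.

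Most runs were short. Of the 172 runs, 70 held exactly 5 regions, 52 held 6 and 21 held 7, while 29 held 8 or more and the longest held 17. Just outside the rule were 198 runs of exactly 4 regions, with 792 RCAs and a median signal of 289, beside 285 for the 350 RCAs in runs of exactly 5. The signal of each RCA is an area (AUC), that of −log10 p summed along the region in the control call, and no RCA had an AUC under 200.004. If 8031 labels fell at random on 22368 numbered regions, arithmetic gives a mean of 475 regions in 85.5 runs. This figure assumes that neighbours are independent, which open regions of 1 locus are not, and no test was made with it.

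**Figure D1:**
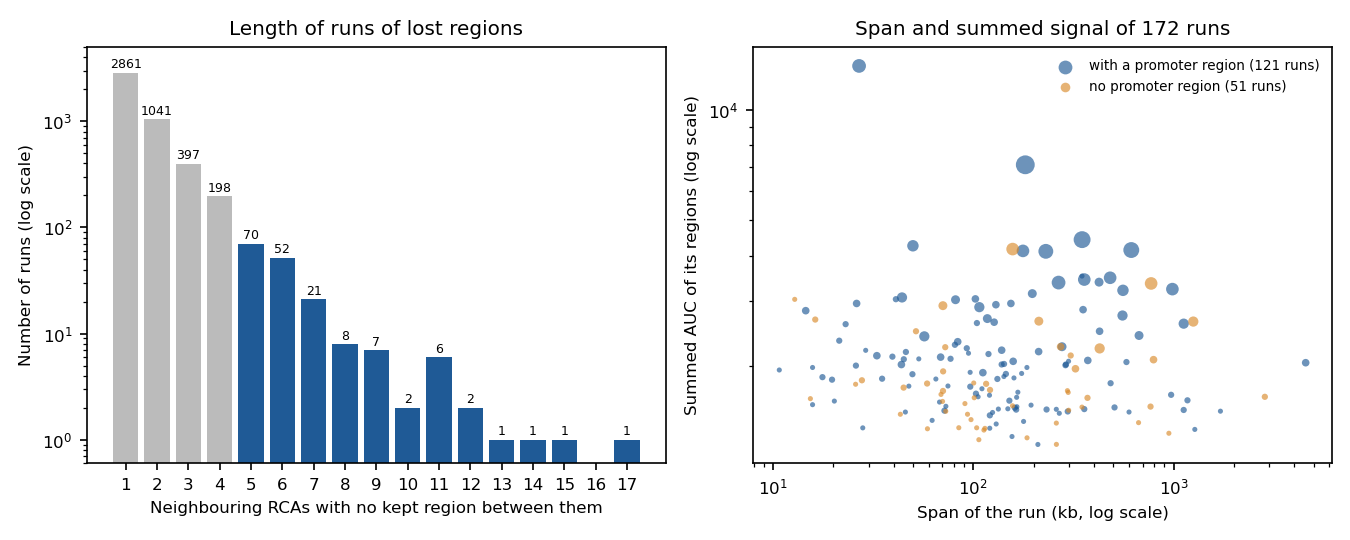
Left, number of runs (log axis) against the number of neighbouring RCAs in a run, with runs of 5 or more in blue. Right, summed AUC against span for the 172 runs (both axes log), with larger points for runs of more regions and colour for runs with (121) or without (51) a promoter region; the point highest on the plot, at 26.9 kb and a summed AUC of 13195, is the Neat1 run.

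Runs spanned 128 kb at the median (quartiles 69.9 and 289 kb), from 10.8 to 4567 kb. Together they covered 46.4 Mb, of which the regions themselves took 457 kb. At the median a run had 1.72% of its span inside its regions, and the share went from 0.0482% to 66.1%. The summed AUC of a run was 1865 at the median, from 1218 to 13195. The strongest region held 24.6% of that sum at the median, and up to 70.6%. Span therefore says how far apart the control regions lay as much as how many were lost. The longest span held 7 RCAs over 4567 kb around Ptprd, a receptor phosphatase gene, and 1 stretch of 4423598 bp in it held no numbered control region at all.

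Neighbours within runs lay 11731 bp apart at the median (n = 933 distances), beside 15844 bp between neighbouring RCAs outside them (n = 2429). Under 1 kb were 13.9% of the distances in runs and 11.7% of the others, and 84 and 341 of them, respectively, were over 100 kb. The regions in runs had a median AUC of 290 (quartiles 240 and 374) against 276 for the other 6926 RCAs (231 and 347), and a median width of 357 against 321 bp. GC content was 51.4% and 52.0% at the median. These quartile ranges overlapped widely, and all of them come from the same pooled control call that chose the runs.

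Kept regions at the edges of runs were counted as well. Exactly 1 kept region, and then another RCA, lay before 74 runs and after 78, and on at least 1 side of 115 runs. Since RCAs were 35.9% of all control regions, the region past a kept one is often an RCA, and nothing is read from these counts. In 6 places a single kept region parted one run from the next. On chromosome 12 such a region stood between 11 RCAs at the Serpina1 genes and 5 RCAs at the Serpina3 genes, a stretch of 788 kb with 16 RCAs in all. On chromosome 4 it stood between 8 RCAs at Rere, an atrophin family transcriptional coregulator, and 7 RCAs at Errfi1, an inhibitor of the epidermal growth factor receptor. With a gap over 50 kb ending a run, 5 of the 11 Serpina1 RCAs stayed in a run. None of those at Serpina3 or Rere did. By genes in their spans, the other pairs joined Gadd45g with Syk and Diras2 on chromosome 13 and Dab2 with Lifr on chromosome 15. On chromosome 8 they joined Cmip with Hsd17b2 and Rhou with Rab4a. A gene in a span need not hold an RCA, and Syk and Diras2 held none. Of the 250 regions open only in Alb-D2KO liver none lay inside a run, where a count of 0 of 250 allows a share of up to 1.2% by counting error alone. Runs held 4.94% of the numbered control regions and spanned 46.4 Mb in all. Nothing is read from the count of 0.

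By position, 20.9% of the regions in runs were at promoters, meaning within 200 bp of an annotated start site (95% Wilson interval 18.6 to 23.4%). Introns held 39.6%, intergenic sequence 32.2% and exons 7.24% (interval 5.86 to 8.92%). Outside runs the shares were 19.2% at promoters, 40.1% in introns, 30.05% in intergenic sequence and 10.7% in exons (interval 9.95 to 11.4%). The exon share was the 1 class whose intervals did not overlap, and the intervals cover counting error only, since neighbours share a locus.

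**Figure D2:**
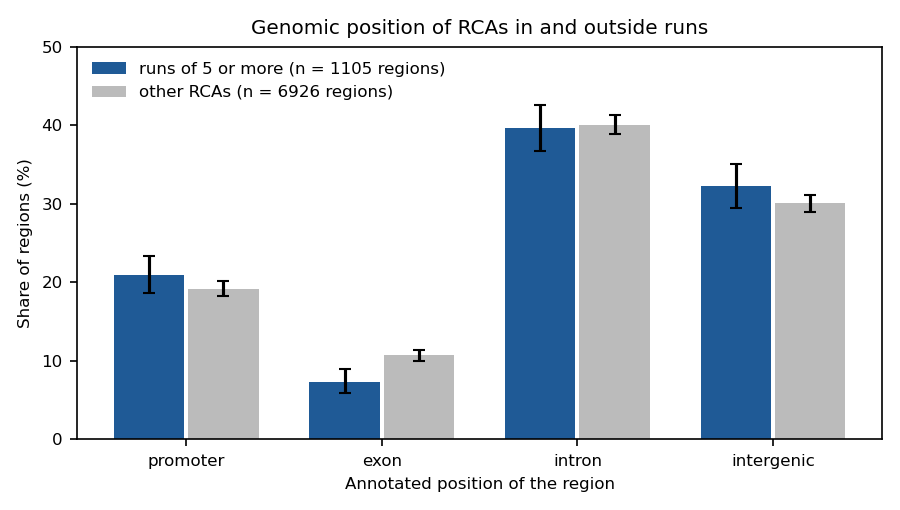
Share of regions at promoters, in exons, in introns and in intergenic sequence for the 1105 RCAs in runs (blue) and the other 6926 (grey); bars start at 0 and error bars are 95% Wilson intervals. Promoter shares were 20.9% and 19.2%, and exon shares 7.24% and 10.7%.

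A promoter RCA (p-RCA) was part of 121 runs (70.3%), and in 120 of these it stood beside RCAs of other classes. Starts of noncoding genes are included, and with protein-coding genes only the share of runs was 63.4%. Since 19.4% of all RCAs were at promoters and a run holds 5 or more, nothing is read from this share. In all, 169 protein-coding genes had a p-RCA of a run, and 37 runs held those of 2 or more coding genes. The strongest region of a run was intronic in 64 runs, intergenic in 54, at a promoter in 45 and exonic in 9. All regions were intronic in 11 runs and intergenic in 8. Outside any protein-coding gene lay 17 runs, while 50 overlapped 1 such gene and 105 overlapped at least 2, with 16 in the richest.

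Median signal was higher in runs of short span, but not in runs of few regions. By number of regions, the median AUC was 285 in runs of 5, 287 in runs of 6 or 7 and 297 in runs of 8 or more. In the 33 runs under 50 kb, the median AUC of the 203 regions was 326 and 23.2% were at promoters. In the 83 runs of 50 to 200 kb it was 296, in the 48 of 200 kb to 1 Mb 277, and in the 8 runs over 1 Mb 278, where 16.98% were at promoters. Median GC content went from 53.3% in the shortest class to 47.6% in the longest. Median width went from 403 bp in the shortest class to 317 bp in the longest. GC content, width and signal thus moved with span, and their part in one another was not tested.

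Runs lay on all autosomes and on neither X, with 40 RCAs, nor Y, with 2. Chromosome 11 had the most, 18 runs with 113 RCAs, and chromosome 8 had 17 with 103. As a share of the RCAs of the chromosome, 24.6% were in runs on chromosome 19 and 22.7% on chromosome 8, beside 6.25% on chromosome 1 and 6.72% on chromosome 2. RCAs were 44.5% of the numbered control regions of chromosome 19 and 31.4% of those of chromosome 1. The order was not the same throughout, since chromosome 15 had 42.1% lost and 13.1% of its RCAs in runs, and chromosome 8 had 35.6% lost.

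The longest run was the apolipoprotein cluster of chromosome 9, from 46086928 to 46268805, with 17 RCAs in 182 kb. Its genes encode proteins of high density and triglyceride-rich lipoproteins. The strongest region covered an exon of Apoa1, the main protein of high density lipoprotein, with an AUC of 1253, and a p-RCA of 429 stood at the Apoa1 start. At the starts of Apoc3, an inhibitor of lipoprotein lipase, Apoa4 and Apoa5, an activator of triglyceride clearance, the p-RCAs had AUCs of 643, 344 and 738. Every one of the 4 apolipoprotein genes thus had its p-RCA. Between Apoa4 and Apoa5 lay 4 intergenic RCAs with AUCs from 293 to 386. The remaining RCAs were 6 in introns of Sik3, a salt-inducible kinase gene next door, with AUCs from 213 to 564, 1 of 248 in a Sik3 exon, and 1 of 346 between Sik3 and Apoa1. No gap exceeded 47077 bp, and the run stayed whole when a gap over 50 kb ended a run.

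**Figure D3:**
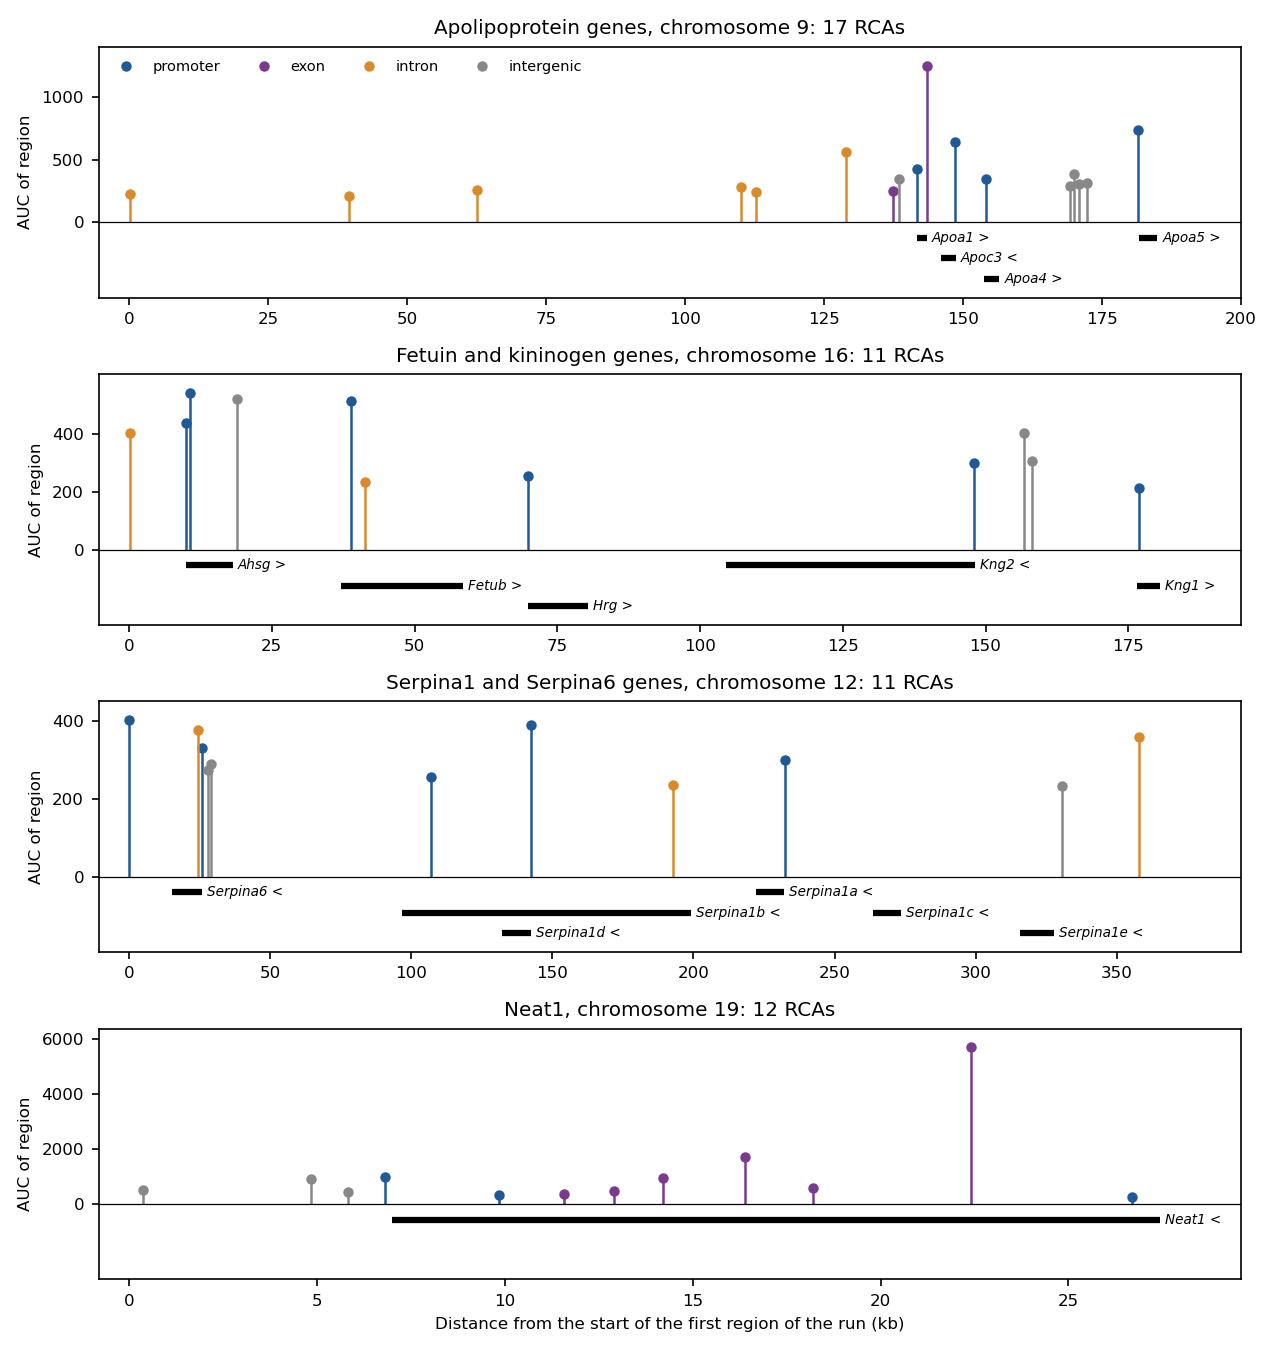
AUC of each RCA (vertical axis) against distance from the start of the first region of its run in kb for 4 runs, coloured by position, with the genes of the fixed lists as black bars (arrowheads give the strand; Sik3 and Serpina10 are not drawn). RCAs cluster over the apolipoprotein genes at the right-hand end of the longest run, are spread along the fetuin, kininogen and Serpina genes, and fill Neat1, where 1 exon region reaches 5697.

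Another run at plasma protein genes held 11 RCAs over 177 kb of chromosome 16, from 22881282 to 23058362. Of these, 7 stayed in a run when a gap over 50 kb ended one. It covered Ahsg and Fetub, which encode the fetuins, Hrg, a histidine-rich plasma glycoprotein, and Kng1 and Kng2, the kininogens that release bradykinin. The 5 genes each had a p-RCA. The AUCs were 437 and 542 at Ahsg, 513 at Fetub, 254 at Hrg, 299 at Kng2 and 211 at Kng1. Intergenic RCAs of 521, 402 and 305 lay between them. Among the p-RCAs the AUC was thus highest at Ahsg and lowest at Kng1.

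The Serpina1 run on chromosome 12, from 103631314 to 103989623, held 11 RCAs in 358 kb and 10 genes of the Serpina family, inhibitors of serine proteases. Serpina1 genes encode alpha-1-antitrypsin and Serpina6 encodes the carrier of corticosteroids. Its 5 coding p-RCAs were at Serpina10 (402), Serpina6 (330), Serpina1b (255), Serpina1d (388) and Serpina1a (299). Serpina1c and Serpina1e, in the same span, had none. Because these copies are nearly alike in sequence, reads may not be placed on 1 of them with certainty, and calls at single Serpina1 genes are uncertain. Of the 11 RCAs of the run, 5 stayed in a run when a gap over 50 kb ended one.

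Beyond the single kept region, the Serpina3 run extended from 104069745 to 104418783. It held only 5 RCAs but 11 Serpina genes, and 1 of the 5, 3063 bp wide and overlapping an exon of Serpina3k and the annotated body of Serpina3m, had an AUC of 2482. The other four had AUCs from 223 to 305, among them the p-RCA of Serpina3n at 305. The Serpina3 genes encode relatives of alpha-1-antichymotrypsin, an acute phase protein. The summed AUC of this run, 3516, came to 70.6% from its strongest region. A stretch of 237542 bp in it held no numbered control region, and none of its RCAs stayed in a run when a gap over 50 kb ended one.

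Neat1, a long noncoding RNA that builds nuclear paraspeckles, filled the run with the highest summed AUC. On chromosome 19, from 5817697 to 5844607, 12 RCAs lay within 26.9 kb, and they covered 66.1% of it. The strongest was 7182 bp wide with an AUC of 5697, and the next reached 1706, both in the noncoding exon of Neat1. In the body of the gene 9 RCAs added up to an AUC of 11337. The gene next to it, Malat1, named here after its values were seen, began 15024 bp outside the run.

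Cytochrome P450 genes, whose products oxidize drugs and steroids, supplied several runs. At the Cyp2d cluster of chromosome 15, from 82422924 to 83037991, 14 RCAs spread over 615 kb, with AUCs from 201 to 408. There were p-RCAs at Cyp2d9 (357), Cyp2d40 (302), Cyp2d26 (320) and the pseudogene Cyp2d38-ps (408), and none at Cyp2d12 and Cyp2d34. When a gap over 50 kb ended a run, 5 of the 14 RCAs stayed in a run. Cyp8b1, the sterol 12-alpha-hydroxylase of bile acid synthesis, had a p-RCA of 260 in a run of 13 RCAs on chromosome 9, from 121902190 to 122132479. That run also held 3 intronic RCAs of Ackr2, a chemokine-scavenging receptor, with AUCs from 252 to 376, and p-RCAs at Pomgnt2 (208) and Snrk (354). Of its 13 RCAs, 6 stayed in a run under the same 50 kb limit. Over the Cyp2a, Cyp2b, Cyp2f and Cyp2g genes of chromosome 7, the run held 11 Cyp genes in 1277 kb but only 5 RCAs, with AUCs from 219 to 329. Its p-RCAs were at Cyp2a22 (219) and Cyp2a12 (221), and 1 stretch of 934874 bp had no numbered control region. Reads of these related copies may also be hard to place.

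The second longest run, 15 RCAs over 349 kb of chromosome 19, from 43797206 to 44146672, joined genes of unrelated function. Its p-RCAs belonged to 6 coding genes, the most of any run. They were Dnmbp, a guanine nucleotide exchange factor (486 and 248), Cpn1, the catalytic subunit of plasma carboxypeptidase N (427), Erlin1, an endoplasmic reticulum protein (297), Chuk, a kinase of the NF-kappaB pathway (223 and 221), Cwf19l1 (273) and Bloc1s2 (472). Single RCAs lay in Abcc2, the canalicular exporter of conjugated organic anions (254), and in Cyp2c23 (254). The AUCs of this run went from 208 to 486, with a median of 254.

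Of the other runs with 11 RCAs, the one on chromosome 8 from 40653486 to 41135821 held p-RCAs at Slc7a2, a cationic amino acid transporter (313), and at Mtus1, a microtubule-associated tumour suppressor (362 and 441). On chromosome 13, from 52060435 to 52833118, all 11 RCAs were intergenic, with AUCs from 214 to 405. Syk, a kinase of immune receptor signalling, and Diras2 overlapped that span and held none of them. Nfib, a nuclear factor I gene, held 9 of 11 RCAs on chromosome 4, between 203 and 441, with the lowest at its start. The runs on chromosomes 8 and 13 broke up into pieces under 5 regions when a gap over 50 kb ended a run, while 9 regions remained at Nfib.

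Alas1, the rate-limiting enzyme of heme synthesis, lay in a run of 10 RCAs in 49.98 kb of chromosome 9, from 106230695 to 106280672. The strongest, with an AUC of 939, stood just beyond the 3′ end of the gene. Its promoters held RCAs of 585 and 502, and 6 intergenic RCAs from 258 to 473 followed upstream. Rere held RCAs of 775 and 387 at its starts and 607 in an intron. Cmah, the hydroxylase that makes N-glycolylneuraminic acid, held 6 of 10 RCAs on chromosome 13, with 579 as the highest, beside Slc17a2, Slc17a1 and Slc17a4, a family of anion transporters, with 4 from 244 to 331. Stbd1, which binds glycogen, had a p-RCA of 640 in a run of 8 RCAs on chromosome 5. The Alas1 run stayed whole when a gap over 50 kb ended a run. The Cmah run then kept 6 RCAs, the Stbd1 run 5 and the Rere run none.

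The shortest runs were dense. Sec14l2, a lipid-binding protein, held 5 RCAs in 10.8 kb of chromosome 11, with 576 at its promoter as the highest. Beside Cebpa, which encodes a leading hepatocyte transcription factor and was named after its values were seen, 5 intergenic RCAs filled 12.8 kb of chromosome 7, from 35122122 to 35134961. The nearest began 193 bp past the 3′ end of the gene and had an AUC of 1737, and the other four had AUCs from 276 to 387. Between Apoc4 and Apoe, 7 RCAs lay in 14.6 kb of chromosome 7, from 19681183 to 19695755. The highest, 823, ended 353 bp from Apoe, again named after its values were seen, and the p-RCA of Apoc4 had an AUC of 451. Apoc1 held 2, of 280 and 254. Ttc7 introns held 5 RCAs in 15.4 kb of chromosome 17, between 255 and 420, and Plec, a cytoskeletal linker gene, had its p-RCA of 588 in a run of 15.8 kb on chromosome 15.

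Counted by gene, 462 of 21911 protein-coding genes (2.11%) overlapped the span of a run, 314 (1.43%) held a region of a run in the gene body, and 15.7% held any RCA. These shares are the background for the gene lists, whose members were set with earlier results of these data known. Among 47 plasma carriers and acute phase proteins, 18 (38.3%) lay in a run, 14 held a region of it and 23 held any RCA. Gene copies in 1 cluster enter together, and 8 of the 18 were Serpina1 and Serpina3 genes. Alb itself, serum albumin, held an exonic RCA of 386 in a run of 5 on chromosome 5, with an intergenic RCA of 596 just past its 3′ end, whereas Afp and Afm in that span held none.

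Of 46 genes in the complement and coagulation list, 9 (19.6%) lay in runs and 6 held a region, namely C8a, C8b, Fga, Masp1, Serpinf1 and Serpinf2. Serpinf1 is counted as a list member, though it encodes no coagulation factor. Klkb1, the plasma prekallikrein gene, is outside the list and is named after its values were seen. It had a p-RCA of 215 and an intronic RCA of 368 in a run on chromosome 8. Fga, the fibrinogen alpha chain, had a p-RCA of 254. Serpinf2, the plasmin inhibitor, had 2, the stronger of 452, and Masp1, a protease of the lectin pathway, held 4 RCAs up to 440. All 9 of the 45 apolipoprotein and lipid handling genes in runs held a region. Besides those described with their runs they were Scarb1, the high density lipoprotein receptor, with 4 RCAs up to 495, Apob, with a p-RCA of 259, and Fabp1, the liver fatty acid-binding protein, with one of 388 beside 5 intergenic RCAs from 253 to 366 upstream.

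For fatty acid oxidation and ketogenesis, 8 of 37 genes lay in runs (21.6%), but 4 held a region, among them Acsm5 and Acsm1, acyl-CoA synthetases, and Acot2, a thioesterase, which are members of gene clusters. Of 32 genes of fatty acid and cholesterol synthesis, 3 lay in runs, and each had a p-RCA. They were Mlxipl, which encodes the carbohydrate response factor ChREBP (450 and 418), Fads2, a fatty acid desaturase (440), and Scd1, the stearoyl-CoA desaturase (416). Amino acid and urea genes in runs were 4 of 42, each with a p-RCA, among them Tdo2 of tryptophan breakdown (385), Hpd of tyrosine breakdown (360) and Tat, tyrosine aminotransferase (255). Of 33 glucose and glycogen genes 2 lay in runs (6.06%) and 57.6% held any RCA, with a p-RCA of 369 at Gcgr, the glucagon receptor, and 1 RCA of 208 in Ppp1r3b.

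The cytochrome P450 and conjugation list had 35 of 176 genes in runs (19.9%), of which 16 held a region in the gene body. Among them were Ces1c, Ces1g, Ces2g and Ces3b of the carboxylesterase clusters of chromosome 8. Ces1d, with a p-RCA of 324 just upstream of its body, is not among the 16. Of the 35 genes, 11 lay in the Cyp run of chromosome 7 and 8 in the Ces1 run. Bile acid and organic ion transporters had 5 of 69, and Slco1b2, a hepatic uptake carrier that also transports thyroid hormone, held 1 RCA of 207 in a run of 6. Of 18 thyroid hormone signalling genes, 2 (11.1%) lay in runs, beside 2.11% of all coding genes. They were Slco1b2 and, in the same run but without a region, Slco1c1. Any RCA was held by 33.3% of the 18, beside 15.7% of all coding genes. No RCA lay within 200 bp of Dio2 itself.

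Of 28 genes of growth hormone, insulin-like growth factor and SOCS signalling, 5 (17.9%) held a region of a run. Socs2, a growth hormone target that restrains its receptor, had a p-RCA of 1024, the highest at any list gene. Igfbp4 held 4 RCAs up to 609, Lifr 5 up to 342, Igf1 2 up to 360, and Jak1 2 up to 296. Of 25 hepatocyte transcription factors Nfib, Nfix and Bcl6 held regions, and in the run of 7 RCAs on chromosome 8 all 7 lay in Nfix, between 217 and 622. Nuclear receptors and coregulators gave 3 of 56. Nr1h4, the bile acid receptor FXR, had a p-RCA of 550 and 3 intronic RCAs of 251 to 330, and Nr5a2, which also governs bile acid genes, held 3 up to 378. Hlf, a clock-controlled bZIP factor and the 1 gene of 22 in the clock list, held all 7 RCAs of its run, 4 of them at start sites, with AUCs from 228 to 396. Immediate early and stress genes gave 3 of 49, Neat1, Btg1 (560) and Gadd45g (345).

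None of 26 major urinary protein, 85 cytosolic ribosomal and 87 respiratory chain genes overlapped a run, and 3.85%, 7.06% and 5.75% of them held any RCA. Of 101 histone genes 2 (1.98%) overlapped one without holding a region. Beside the 2.11% of all coding genes, nothing is read from these counts. Among markers of other liver cells, none of 13 for Kupffer cells and leukocytes and none of 12 for stellate cells overlapped a run. For sinusoidal endothelium it was 1 of 10, Stab2, with 1 RCA of 207, and for bile duct 1 of 10, Sox9, with none. The 7 defining hepatocyte markers were a separate set, counted by RCAs in the gene or within 200 bp of it. Among them Alb, Apoa1, Apob and Serpina1a had a region of a run, Hnf4a had 5 RCAs, all outside runs, and Ttr and Cps1 had none. Regions kept in both genotypes carry no positions in the lists, so a marker without an RCA may still be open. Over all 23 lists, 112 of 1049 genes (10.7%) overlapped a run and 77 (7.34%) held a region of one, while 29.9% held any RCA. Of all coding genes 15.7% held any RCA, but the lists were set with earlier results of these data known. Their share in runs cannot be read apart from that choice or from their share with any RCA.

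**Figure D4:**
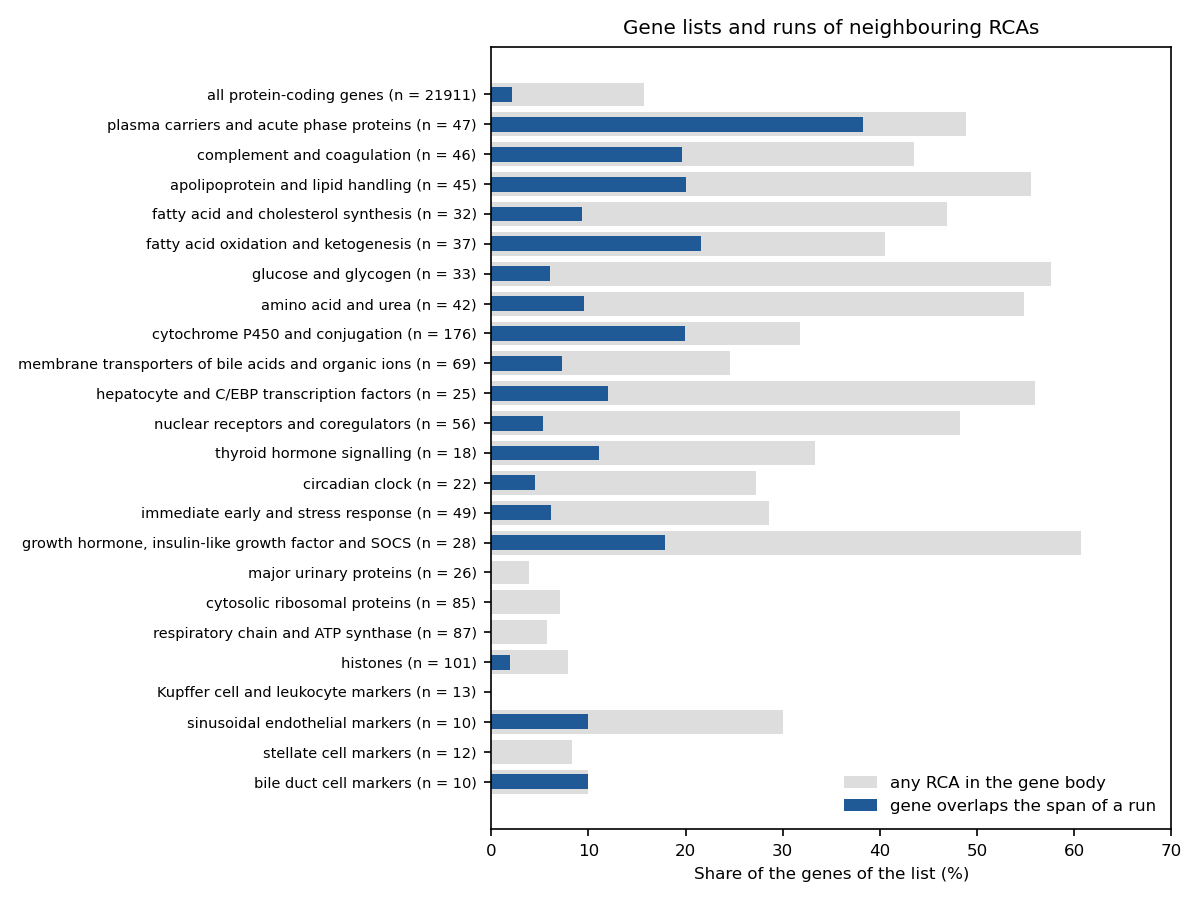
Share of the genes of each list that overlap the span of a run (blue) and that hold any RCA (grey), with all 21911 protein-coding genes in the top bar and the number of genes in brackets. The plasma carrier and acute phase list has the longest blue bar, at 38.3%, beside 2.11% for all coding genes; Kupffer cell markers have neither.

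In 20 of the 172 runs, with 154 RCAs, 3 or more coding genes shared the root of their symbol, among them Adh, Ces, Cyp, Serpina, Acot, Acsm, Abca and Slco genes, but also Padi, Adam, Smok, Evi and Hspa genes. These runs spanned 319 kb at the median, beside 128 kb for all runs, and longer spans hold more genes. Of the 172 runs, 22, with 120 RCAs over 10.8 to 185 kb each, lay wholly within 1 gene. In these, 91 of the RCAs were intronic, and 15 of the 22 runs included a start site. Hlf, Nfix, Tcf7l1, an effector of Wnt signalling, Arid1b, a chromatin remodeller, Cobll1, Psd3, Gng7 and Pitpnc1 were such genes.

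In sequence, regions of runs and other RCAs held the searched letters at shares that differed by a few percentage points. Over whole regions, C/EBP letters were in 24.1% of the 1105 regions in runs and 20.4% of the 6916 others with sequence, FOXA letters in 10.8% and 7.13%, AP-1 letters in 13.8% and 10.5%, and STAT5 letters in 14.7% and 10.8%. Regions of runs were wider, so windows of 200 bases around the summit were compared as well. There the shares of these letters drew closer, at 15.6% and 14.1% for C/EBP, 6.43% and 4.76% for FOXA, 8.05% and 6.75% for AP-1 and 8.14% and 6.64% for STAT5. Those of SP1, CTCF and HNF4A did not. SP1 letters were in 5.97% and 8.69% of the windows, and in 11.3% and 13.1% of whole regions. For CTCF the shares were 10.3% and 11.7% in windows, and 18.5% and 18.4% over whole regions. For HNF4A they were 3.71% and 4.29%, and 5.61% and 5.67%. NRF1 letters were in 0.271% and 0.231% of the windows, and in 0.452% and 0.289% of whole regions. Among 32851 RefSeq promoter windows of GRCm38, each 300 bases long, 10.8% held the C/EBP letters, 3.65% those of FOXA and 25.6% those of SP1. A match of letters is a description and not a binding site.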

How the data were processed

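ATAC-seq was made on liver nuclei of 4 control and 4 Alb-D2KO adult mice. The authors trimmed adapters with NGmerge, aligned reads to mm10 with BWA 0.7.17, kept alignments with a MAPQ of at least 30 that were neither duplicates nor chimeric or supplementary, and called regions with Genrich 0.6 at a q-value threshold of 0.05 on libraries grouped together, leaving out a blacklist from single-library calls. They then subtracted regions that overlapped a region of the other genotype. The deposited signal is an area (AUC) of −log10 p along the region, as the authors' caller gave it, the score is a scaled form of it that was not used for any result, and the −log10 q belongs to the summit and served as a filter in 1 alternative. Columns of summit −log10 p were left unused, and the deposited summit offset gave the windows for sequence.

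Here, RCAs were grouped into runs by region number within a chromosome. The highest number, counted from 0, gives the control regions, a lower bound. Positions were assigned in the order promoter (200 bp around a start site), exon, intron, intergenic, from GENCODE M21 on mm10, while the study's methods name another release. Python 3.11.15, pandas 2.3.3, scipy 1.17.1 and pysam 0.24.0 were used, and the run finder was tested on simulated data. No library depth can be read from the lists, and 95% Wilson intervals and the upper limit for a count of 0 (3 counts) cover counting error over regions only. Named were the 12 runs with most regions, the 5 others with the highest summed AUC, the 5 others with the shortest span, the runs with most genes of 1 symbol root, and genes of the 23 lists. Some runs and genes that this rule covers are not reported here. The members and lists were chosen with earlier results of these data known. Alternatives changed the run rule, the region filters, the promoter window and the gene overlap.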

Additional observations from a re-analysis of the deposited data

How the results depend on the processing

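Of 85 recomputed values for 14 results, 49 stayed within 1.5 times a count, or within the 95% interval of a share or median, and none turned a direction, since none is signed. The number of runs, 172, fell most under stricter signal, to 12 with 73 regions when an AUC under 300 ended a run (longest 11, median span 54.1 kb) and to 17 with 89 regions when a q of 0.001 or more did (longest 6, median span 106 kb). These settings remove regions by construction. A gap over 50 kb left 91 runs with 571 regions (median span 49.98 kb), 156 coding genes and 40 list genes, a median AUC of 305, a width of 380 bp and a GC content of 52.2%. A gap over 100 kb gave a median span of 96.5 kb. Runs of 6 or more numbered 102, of which 77.5% had a promoter region, and runs of 4 or more numbered 370, with 1897 regions and a median span of 99.6 kb. Letting 1 kept region stand inside a run, chosen after seeing the data, gave 455 runs with 3389 regions and a median span of 268 kb.

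A promoter window of 1000 bp put 29.96% of the regions at promoters, 5.34% in exons and 34.7% in introns, with a promoter region in 80.8% of runs. With the midpoint deciding, the shares were 16.2%, 5.52% and 44.3%. With protein-coding genes only, they were 17.3%, 5.16% and 36.4%, and 41.2% were intergenic. The cause of these shifts was not tested beyond the change of rule itself.

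The main limits are the pooled calls, the unknown depth and a lost call that is present or absent, so a region just under the calling threshold in Alb-D2KO liver counts as lost. Leaving out a library was not possible with pooled calls. No paired analysis was possible because the calls pool the libraries of a genotype, no result comes from a test, and replicate numbers are only names in accession order.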

Other observations

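The runs at Rdm1, Slc38a3, Adh and Ifit genes given here hold no gene of the lists and were chosen after their values were seen. Of the 172 runs, 6 held a region with an AUC of 1000 or more, at Neat1, Serpina3k, Cebpa, Apoa1, Socs2 and Rdm1. The Rdm1 region, on chromosome 11 from 101626850 to 101628239, had an AUC of 1243. It lay at the start of Rdm1, a DNA repair gene, and also at that of Gm23849, a gene not annotated as coding. An RCA of 986 stood at the start of Slc38a3, a glutamine transporter of the liver, on chromosome 9 from 107667056 to 107668371.

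The alcohol dehydrogenase genes of chromosome 3 shared a run of 8 RCAs over 213 kb that included no coding promoter, and a run of 7 RCAs over 353 kb spanned 6 Ifit genes, which respond to interferon, with coding p-RCAs at Lipa and Slc16a12 instead. These are values with no test.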
